A study of Mus musculus with 2 samples.

Results

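The Mir378 family was counted in 2 libraries labelled as gastrocnemius, a calf muscle, of mouse pups at 4 days of age. The family comprised the microRNA genes Mir378a, Mir378b, Mir378c and Mir378d, 4 of the 2202 microRNA genes in the deposited count files. The members were chosen by their gene names in the annotation, and Mir378a was singled out from its read counts in these libraries, in the sense column and in the column that counts both strands together. Its abundance, its difference between the libraries and its loss from the both-strand column are therefore given as a description, with no test. All 4 members had at least 10 sense reads in each library.

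The libraries were made from total RNA, with inserts shorter than 30 nt, of 2 male B6CASTF1/J pups, first-generation hybrids of C57BL/6 and CAST mice. They form 1 group with no treatment and no second condition, and the labels number them replicate 2 (animal 4) and replicate 1 (animal 3) as separate biosamples under 1 donor identifier. Ratios are replicate 2 over replicate 1 and compare 2 libraries, not conditions. Replicate 2 held 7240126 reads, of which 3073086 (42.4%) fell on the sense strand of a microRNA gene, and replicate 1 held 8522350 reads, of which 4458853 (52.3%) did so.

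The libraries differed in markers of the labelled tissue, and not all in 1 direction. The 11 listed skeletal muscle microRNAs summed to 0.479% of the sense reads of replicate 2 and 14.7% of those of replicate 1, and Mir206 made up nearly all of the sum in replicate 1. The other 10 summed to 0.476% in replicate 2 and 0.0907% in replicate 1. Of these, Mir499 held 0.281% and Mir208b 0.141% of replicate 2, and 0.0438% and 0.0240% of replicate 1. Mir1a-1, Mir1a-2, Mir133a-1 and Mir133a-2 had from 2 to 156 reads. Reads mapping to more than 1 place are counted for no gene, and how many came from these copies was not tested. Of the 8 listed genes with at least 10 reads in total, 3 were at least 2-fold higher in replicate 2. These were Mir208b, Mir486 and Mir499. At least Mir208b and Mir499 are also made in heart, and which cells gave the Mir486 reads was not tested. Another 2 (Mir206 and Mir133b) were at least 2-fold lower, beside 25.6% higher and 33.4% lower among all 410 genes with that many reads, with libraries scaled by the trimmed mean of M values (TMM). The median log2 ratio of the 8 listed genes was 0.02, and between −0.17 and 0.42 under the other scalings. Under those scalings either 3 were higher and 4 lower, or 4 were higher and 2 lower. Mir206, restricted to skeletal muscle, had 101 reads in replicate 2 and 652657 in replicate 1, while Mir208a, restricted to heart, had 29718 in replicate 2 and 59 in replicate 1. Mir133b was also far lower in replicate 2, with 10 reads against 427 in replicate 1 (log2 ratio −5.18). At Mir206, Mir133b and Mir208a the values of replicate 2 go against its label, and which tissue it holds was not tested. Every value of the Mir378 family is therefore given for each library by its label, and the part of this difference in the family's values was not tested.

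Mir378a is transcribed with its host gene Ppargc1b, which encodes the coactivator PGC-1β, a regulator of mitochondrial and fatty acid metabolism. In mice its mature microRNAs are known to restrain mitochondrial fat oxidation, to promote differentiation of cultured myoblasts and to be abundant in heart, skeletal muscle and brown fat. A microRNA pairs with its target messenger RNAs mainly through its seed, bases 2 to 8 from the 5′ end. Less is known of the roles of Mir378b, Mir378c and Mir378d.

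The mature sequences below, from RefSeq on GRCm38.p6, show how nearly alike the products of 3 members are and where their seeds part. RefSeq entries for 3 members were used, and none for Mir378a was among those searched. The mature miR-378b lies at chr11:88352839-88352858 (plus strand), miR-378c at chr14:46954905-46954925 (minus strand) and miR-378d at chr10:126710355-126710376 (minus strand). Capitals mark the seed.
miR-378b: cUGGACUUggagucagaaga
miR-378c: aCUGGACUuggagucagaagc
miR-378d: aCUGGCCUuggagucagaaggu

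These 3 sequences had 3 different seeds. With positions counted from 1 at the 5′ end of miR-378c and its base written first, miR-378d differed from it at 2 of 21 aligned bases, A6C and C21G, and the first of these falls in the seed. The sequence of miR-378b began 1 base further in and differed from miR-378c at 1 of 20 aligned bases, C21A, so its seed was shifted by that base. No other mature entry among the 1738 searched had any of the 3 seeds. These entries held none for Mir378a, so whether it shares a seed with the other members was not tested. The mature stretch of miR-378c occupied positions 4 to 24 of its 99 nt hairpin and that of miR-378d positions 16 to 37 of 110 nt, both on the 5′ arm. That of miR-378b occupied positions 67 to 86 of 92 nt, on the 3′ arm.

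The annotated precursors shared long stretches, which bears on every count below. Mir378a shared an exact run of 20 nt with Mir378c, 19 nt with Mir378b and 15 nt with Mir378d. Mir378b and Mir378c shared 19 nt, and Mir378d shared 14 nt with each of these. No member shared a run of 22 nt with any of the other annotated microRNA genes, leaving aside Gm25301, which covers Mir378a on the opposite strand. A read lying wholly inside a shared run maps to more than 1 place. Reads mapping to more than 1 place in the genome, whatever their source, made up 45.1% of replicate 2 and 35.7% of replicate 1, and how many came from the family was not tested. The gene totals do not separate the microRNAs of the 5′ and 3′ arms.

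The genes sit in different settings. Mir378a (ENSMUSG00000105200.1) is annotated in mm10 on chromosome 18 from 61397835 to 61397900, on the minus strand like its host Ppargc1b. It lies in intron 1 of the 12-exon principal transcript, an intron of 76981 nt, and starts 2531 nt from the start of the host gene. No exon of the 3 Ppargc1b transcripts over it overlaps it. Mir378b (ENSMUSG00000092985.1; chromosome 11, 88352773 to 88352864) lies in intron 11 of Msi2, an RNA-binding protein gene, and Mir378c (ENSMUSG00000099036.1; chromosome 14, 46954830 to 46954928) in intron 2 of Samd4. Both are on the strand opposite to the gene they lie in. Mir378d (ENSMUSG00000098756.1; chromosome 10, 126710282 to 126710391) lies in no annotated gene, 158036 nt from the nearest coding gene, Atp23, and 285139 nt from the nearest microRNA gene, Mir26a-2. Thus 1 of 4 members has a host gene on its own strand.

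**Figure D1:**
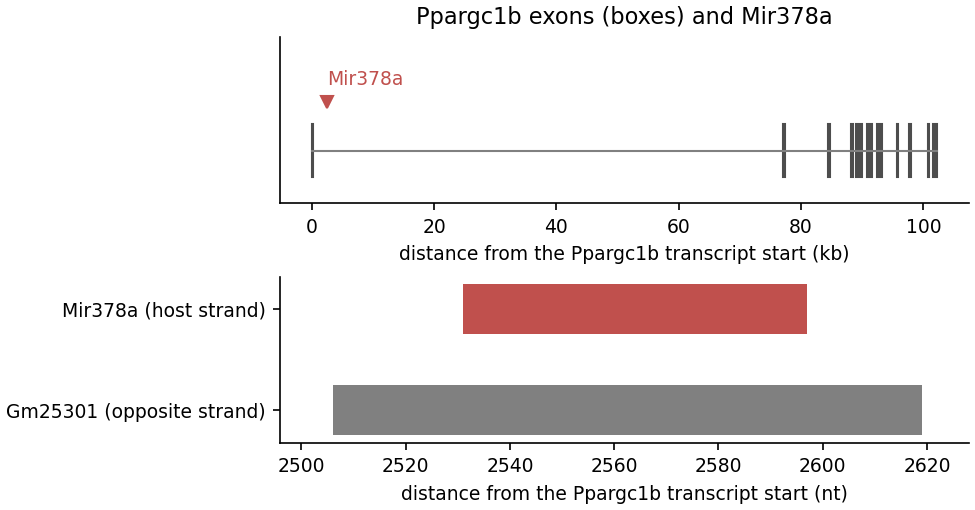
Position of Mir378a in Ppargc1b, as distance from the start of its principal transcript, in kb for the whole transcript (top; boxes are exons, short ones widened to be visible) and in nt around the microRNA (bottom; bars are the annotated genes). Mir378a lies in the first intron, 2531 nt from the start of the host gene, and all of its 66 nt are covered by Gm25301 on the opposite strand.

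Mir378a was among the most abundant microRNA genes of both libraries. It had 566450 sense reads in replicate 2 and 245195 in replicate 1. These were 18.4% (95% Clopper-Pearson interval 18.4 to 18.5%) of the sense reads of replicate 2 and 5.50% (5.48 to 5.52%) of those of replicate 1. The mean was 12.0% ± 9.15 (SD, n = 2). It joins 2 libraries with unlike tissue markers and describes neither of them. The gene ranked at 1 in replicate 2 and at 4 in replicate 1. Mirlet7i, of the let-7 family, stood next below it in both, with 312434 reads in replicate 2 and 242319 in replicate 1, so that Mir378a held 1.81 times its reads in replicate 2 and 1.01 times in replicate 1. The lead over Mirlet7i was thus large in replicate 2 and small in replicate 1. Shares are relative to each library's total, and fewer cells that make a microRNA cannot be told apart from less of it per cell.

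The other 3 members were rare. Mir378b had 15 reads in replicate 2 (exact Poisson interval 8.40 to 24.7) and 26 in replicate 1 (17.0 to 38.1). Mir378c had 100 reads (81.4 to 122) in replicate 2 and 114 (94.0 to 137) in replicate 1. Mir378d had 185 reads (159 to 214) in replicate 2 and 19 (11.4 to 29.7) in replicate 1. Read counts of Mir378b and Mir378c were of like size in both libraries, while those of Mir378d were high in replicate 2 alone.

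In reads per 1000000 sense reads (CPM), Mir378b stood at 4.88 in replicate 2 and 5.83 in replicate 1. Mir378c stood at 32.5 CPM in replicate 2, against 25.6 CPM in replicate 1. For Mir378d the level was 60.2 CPM in replicate 2, against 4.26 CPM in replicate 1. The order below Mir378a was Mir378d, Mir378c and Mir378b in replicate 2, with intervals that did not overlap. In replicate 1 it was Mir378c, then Mir378b and Mir378d, and the intervals of the last pair overlapped. A count of 3 reads, taken as the limit that a count of 0 allows, corresponds to 0.976 CPM (replicate 2) or 0.673 CPM (replicate 1), so every member lay above it. All intervals cover the counting error of reads only, not differences between animals or scalings. Any PCR copies of 1 molecule that were counted separately would make them too narrow.

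**Figure D2:**
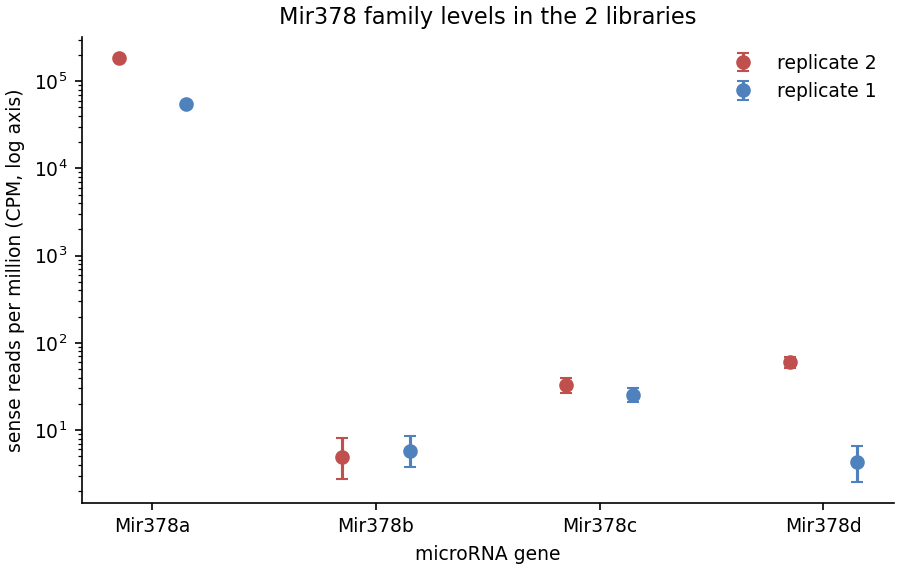
Sense reads in CPM (log axis) of the 4 family members in replicate 2 (red, left) and replicate 1 (blue, right); points are single libraries and bars exact Poisson 95% intervals. Mir378a lies near 184326 and 54991 CPM, more than 3 decades above Mir378b, Mir378c and Mir378d, and Mir378d is the member with the widest gap between libraries.

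Mir378a made up nearly the whole family. It held 99.947% of the family's 566750 reads in replicate 2 and 99.935% of 245354 in replicate 1. The other 3 members together had 300 reads (0.0529%) in replicate 2 and 159 reads (0.0648%) in replicate 1. These shares within the family do not depend on how the libraries are scaled to each other.

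The rare members did not keep a fixed proportion to Mir378a. Per 1000000 reads of Mir378a, Mir378b had 26.5 reads in replicate 2 and 106 in replicate 1. Mir378c had 177 in replicate 2 and 465 in replicate 1, while Mir378d had 327 in replicate 2 and 77.5 in replicate 1. Mir378b and Mir378c were thus lower in replicate 2 relative to Mir378a, and Mir378d was higher. Mir378d had 1.85 times the reads of Mir378c in replicate 2 and 0.167 times in replicate 1, an 11.1-fold change of that ratio.

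Between the libraries Mir378a and Mir378d were more than 2-fold apart. With TMM library sizes, the log2 ratio was 1.32 for Mir378a (counting interval 1.31 to 1.33), which is 2.50-fold higher in replicate 2. For Mir378d it was 3.33 (2.71 to 4.16). Mir378c stood at −0.08 (−0.48 to 0.32) and Mir378b at −0.65 (−1.70 to 0.29), so neither differed beyond counting error. Of the 4 members, 2 were at least 2-fold higher in replicate 2 and 0 at least 2-fold lower. Among all 410 genes with at least 10 reads in total, 25.6% were at least 2-fold higher and 33.4% at least 2-fold lower.

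Gaps of this size were common among the genes as a whole. The median absolute log2 ratio of those 410 genes was 1.25, close to that of Mir378a, and 76 of them had a higher ratio than Mir378a and 13 a higher one than Mir378d. Among the 299 genes with at least 10 reads in each library, the median was 1.14 and 44 had a higher ratio than Mir378a. Of the 10 most abundant genes of replicate 2, 2, Mir378a among them, were at least 2-fold higher and 0 at least 2-fold lower. Of those past 2-fold among the 410 genes, 43.4% were higher in replicate 2, against 54.0% when libraries were scaled by total sense reads. That scaling moved the median log2 ratio of all 410 genes by 0.40, to 0.26 in place of −0.14. Mir378a then stood at 1.745, Mir378d at 3.74, and Mir378c turned to 0.34 (−0.05 to 0.75). Under the 5 other scalings tried Mir378a ranged from 1.12 to 1.745 and Mir378d from 3.13 to 3.74. Both stayed above 1 under all of them, 1 of which, DESeq2 size factors over all genes, left the counts unscaled.

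**Figure D3:**
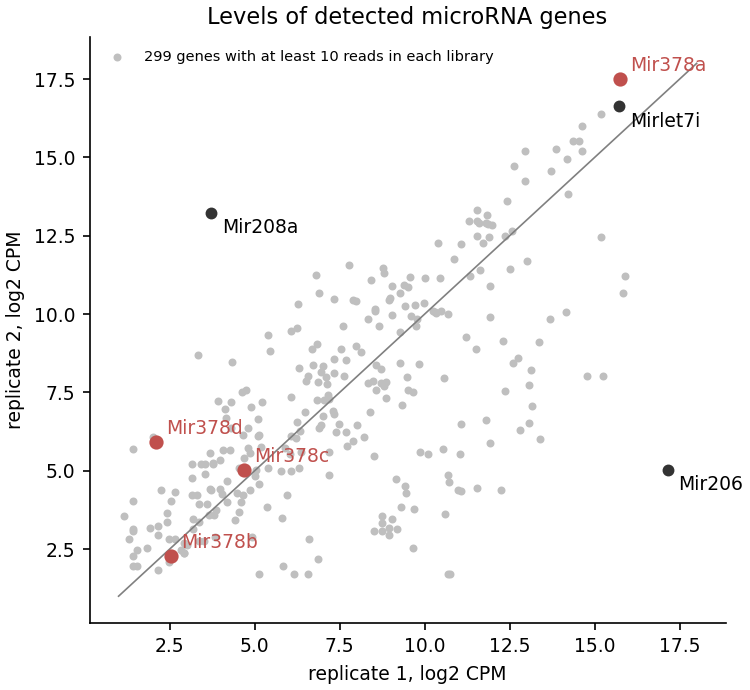
Log2 CPM in replicate 2 (vertical) against replicate 1 (horizontal) for the 299 genes with at least 10 reads in each library; each point is a gene and the line marks equal CPM. Mir378a sits at the top of the cloud beside Mirlet7i, Mir378c and Mir378b lie near the line, Mir378d lies above it, and Mir206 and Mir208a lie far from it on opposite sides.

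Mir378a vanished when the strands were counted together. In the both-strand column it had 0 reads in each library, although its sense column held 566450 in replicate 2 and 245195 in replicate 1. Mir378b, Mir378c and Mir378d kept every sense read there. Gm25301, an annotated microRNA gene of 113 nt on the other strand (chromosome 18, 61397813 to 61397925), covers all 66 nt of Mir378a. Without strand, a read over such a pair falls to both genes, and the both-strand column has a summary line for ambiguous reads.

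The strand columns account for these reads. Gm25301 had 0 sense reads in each library, and its antisense column held 566450 reads in replicate 2 and 245196 in replicate 1, which is the count of Mir378a to within 1 read. In the both-strand column Gm25301 had 0 reads in replicate 2 and 1 in replicate 1. Mir378a itself had 0 antisense reads in each library, which allows up to 0.00053% of its sense count in replicate 2 and 0.00122% in replicate 1. Detected signal at the locus was thus on the strand of Mir378a and Ppargc1b.

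No other overlapping gene matched as many ambiguous reads as Mir378a. Its sense reads equal 65.5% of the 864996 ambiguous reads of replicate 2 and 45.6% of the 537662 of replicate 1. Of the 4 members 1 kept under 50% of its sense reads in the both-strand column, and of 299 genes with at least 10 reads in each library 23 did so (7.69%). All 23 belong to the 32 annotated pairs of microRNA genes that overlap on opposite strands, and they kept at most 0.0600% of their reads. The 276 other detected genes kept at least 100%.

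Mir126a, an endothelial microRNA gene paired with Mir126b, came next. It had 203314 sense reads in replicate 2 and 113331 in replicate 1, or 23.5% of the ambiguous reads of replicate 2 and 21.1% of those of replicate 1. It kept 14 reads in replicate 2 and 5 in replicate 1. Mirlet7e followed in mean level with 31434 reads in replicate 2 and 13202 in replicate 1, and then Mir191, Mir30e and Mir409. Without Mir378a, the detected overlapping genes held 9.71% of the sense reads of replicate 2 and 6.55% of those of replicate 1. With it they held 28.1% in replicate 2 and 12.1% in replicate 1. In the both-strand column the most abundant gene of replicate 2 was Mirlet7i (14.1%), in place of Mir378a, and that of replicate 1 remained Mir206 (16.6%).

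**Figure D4:**
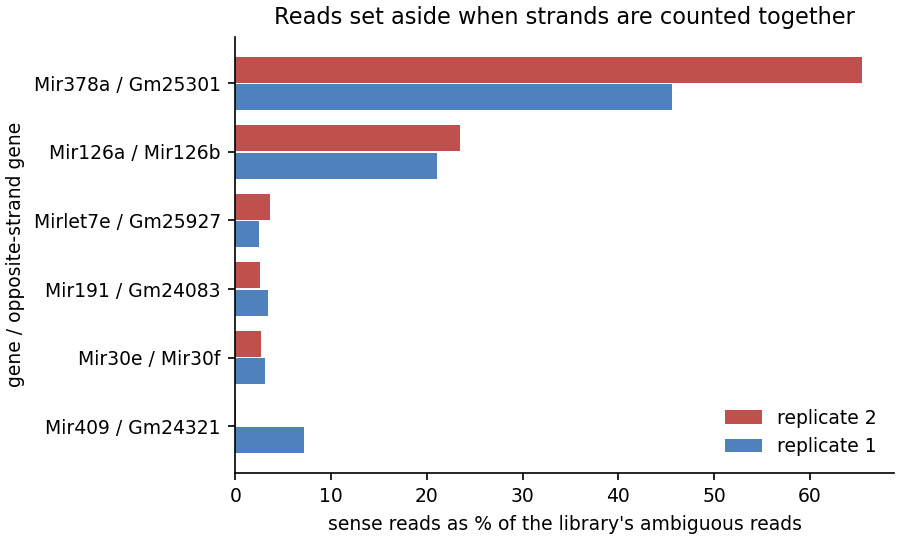
Sense reads of the 6 overlapping genes with the highest mean CPM, as a percentage of the ambiguous reads of replicate 2 (red, upper bars) and replicate 1 (blue, lower bars). Mir378a with 65.5% and 45.6% exceeds Mir126a with 23.5% and 21.1%, and the other 4 genes stay under 10%.

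The predicted folds of the precursors separated Mir378a from the other members. The annotated 66 nt hairpin of Mir378a had a predicted free energy of −38.5 kcal/mol, or −0.583 kcal/mol per nt, more stable than 95.6% of the 2202 annotated hairpins. Mir378b stood at −0.338 kcal/mol per nt, Mir378d at −0.318 and Mir378c at −0.273. The median was −0.369 for all hairpins and −0.433 for the 299 detected ones. Among these detected hairpins, 94.3% were less stable per nt than Mir378a, 7.69% less stable than Mir378b, 4.35% less than Mir378d and 1.34% less than Mir378c. The annotated spans of these 3 genes are longer, at 92 nt for Mir378b, 110 nt for Mir378d and 99 nt for Mir378c, and the part of span length in this gap was not tested.

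**Figure D5:**
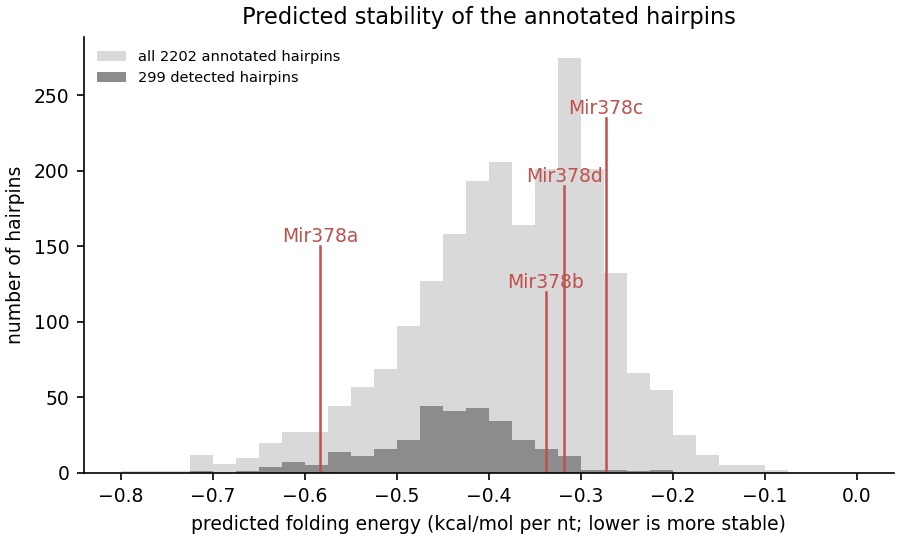
Number of annotated microRNA hairpins (light grey, all 2202; dark grey, the 299 with at least 10 reads in each library) by predicted folding energy in kcal/mol per nt. Red lines mark the family members at −0.583 for Mir378a, −0.338 for Mir378b, −0.318 for Mir378d and −0.273 for Mir378c; their heights carry no value.

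The genes with levels most like those of Mir378a were other very abundant ones. By Euclidean distance of log2 CPM over the 2 libraries, among 298 genes, the nearest were Mirlet7i (0.86), Mirlet7g (1.25), Mir126a (1.85), Mir23a (2.30) and Mir143 (2.39). Mirlet7g held 8.50% of the reads of replicate 2 and 3.72% of replicate 1, and its log2 ratio was 0.77. The log2 ratios of the 5 genes ran from 0.48 to 0.95, so each was under the 1.32 of Mir378a and under 2-fold with TMM. With only 2 libraries, likeness rests mainly on the level.

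Among microRNAs reported to act on PGC-1 or muscle mitochondria, 2 of 6 genes with at least 10 reads were at least 2-fold higher in replicate 2 and 1 was lower, where all 410 genes had 25.6% higher and 33.4% lower. The list had 8 names, of which 7 matched the annotation, and its median log2 ratio was 0.72, beside −0.14 for all 410 genes. Mir499, in the myosin gene Myh7b, had 8633 reads in replicate 2 and 1953 in replicate 1, a log2 ratio of 2.25. Mir208b, in the slow myosin gene Myh7, had 4340 reads in replicate 2 and 1068 in replicate 1, a log2 ratio of 2.13. Mir494, in the imprinted Dlk1-Dio3 cluster, was the lower one, with 70 reads in replicate 2 and 3077 in replicate 1. Mir23a, reported to repress PGC-1α in mouse muscle, stood at 0.55, Mir149 at 0.88 and Mir33, in the sterol regulator gene Srebf2, at −0.99. Mir499 and Mir208b are also in the skeletal muscle list. With total sense reads 3 were higher and 1 lower. With DESeq2 size factors, which left the counts unscaled, and with total sense reads outside chromosome 12, 2 were higher and 2 lower.

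Of 16 microRNAs linked to brown fat, 10 were at least 2-fold higher in replicate 2 and 2 were lower, with a median log2 ratio of 1.18. Among all 410 genes 25.6% were higher and 33.4% lower, with a median of −0.14. Under the other scalings 8 to 10 were higher and 2 lower. Mir93 stood at 1.46, with 15269 reads in replicate 2 and 5978 in replicate 1. Mir27b, a brake on brown fat genes in mice, stood at 0.52 with 17811 reads in replicate 2 and 13383 in replicate 1. Mir34a had 7414 reads in replicate 2 and 501 in replicate 1, a log2 ratio of 4.00. The 2 lower genes were Mir182 (log2 ratio −1.94) and Mir365-2 (−4.01), and Mir203 (−0.80) and Mir455 (−0.71) also leaned lower in replicate 2. The list was not split by whether a gene promotes or restrains brown fat. Mir155 is in this list and among the white blood cell markers. A read that maps to more than 1 of several near-identical copies, such as Mir30c-1 and Mir30c-2, is counted for none of them, so their counts are uncertain.

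Most markers of other cell types, like Mir378a, took larger shares of replicate 2. Shares depend on what else fills a library, and Mir206 alone held 14.6% of replicate 1 and 0.00329% of replicate 2. Of the sense reads outside chromosome 12, Mir378a held 18.6% in replicate 2 and 8.21% in replicate 1. Mir126a of the endothelium had 6.62% in replicate 2 and 2.54% in replicate 1, a log2 ratio of 0.95. Smooth muscle was marked by Mir143 and Mir145a, with a summed share of 4.90% in replicate 2 and 2.17% in replicate 1. Of these Mir145a passed 2-fold with TMM (log2 ratio 1.08) but not with total sense reads outside chromosome 12 (0.94). Both red blood cell markers, Mir144 and Mir451a, were at least 2-fold higher in replicate 2 (summed share 0.0979% in replicate 2 and 0.0220% in replicate 1). So were 3 of 5 white blood cell markers, Mir146, Mir150 and Mir155 (0.429% of replicate 2 and 0.0793% of replicate 1 for all 5), while Mir223 stood at −0.96. The share at least 2-fold higher among all 410 genes was 25.6% with TMM. With total sense reads, the scaling that shares use, it was 34.9%. The heart marker Mir208a held 0.967% of replicate 2 and 0.00132% of replicate 1. None of these defining markers was at 0 in either library, and of the 11 skeletal muscle markers 1, Mir133c, was at 0 in each. Their part in the ratio of Mir378a was not tested.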

How the data were processed

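Raw counts were used as deposited, in a column that ignores strand, a sense column and an antisense column for each library, below 4 summary lines. Genome mm10 and GENCODE M21 were used, per the deposited description files. Aligner, counter and trimming settings are not named in the labels or files used here. All 2202 gene identifiers matched M21. Per-sample columns left unused numbered 0.

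The summary lines stayed out of totals. In the sense column of replicate 2, 8.60% of reads were unmapped, 45.1% mapped to several places and 3.83% lay outside annotated genes. In replicate 1 these shares were 9.97%, 35.7% and 2.05%.

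CPM and shares are per sense reads on microRNA genes. Log2 ratios used TMM sizes of edgeR 4.0.16 (R 4.3.3) over all genes, with a prior count of 1. A gene entered ratios with at least 10 reads in total, was detected with 10 in each library, and was past 2-fold at an absolute log2 ratio of 1. With 1 library on each side no test was made and no p-value is given. The biosamples are separate but carry 1 donor identifier, so the spread covers these libraries only. Intervals are 95%, exact binomial or Poisson. DESeq2 1.42.0 gave size factors only. Hairpins from M21 transcripts were folded with RNAfold 2.7.2. The ratio and its interval were checked on simulated counts with Poisson error only and changes in both directions. The interval was checked with total sense reads, not TMM sizes. This check therefore cannot cover spread beyond counting error or the scaling of these libraries. Python 3.11.15, numpy 2.4.6, scipy 1.17.1, pandas 2.3.3 and matplotlib 3.10.9 were used.

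Genes named are the members, genes overlapping them, neighbours in rank, the 5 nearest to Mir378a in level, the 6 leading overlapping genes by mean CPM, and the leading genes of each list (6 of the PGC-1 list, 3 of others). Other genes, among them Mir133b, Mir133c, Mir486, Mir223, Mir30c-1 and Mir30c-2, were named after their values were seen. Members and lists were chosen with earlier results of these data known.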

Additional observations from a re-analysis of the deposited data

How the results depend on the processing

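The log2 ratio of Mir378a, 1.32 under TMM, was 1.21 with DESeq2 size factors, 1.745 with total sense reads and 1.18 with total sense reads outside chromosome 12. Chosen after seeing the data, TMM and DESeq2 size factors on genes with at least 10 reads gave 1.12 and 1.40. Prior counts of 0.5 and 5 left it at 1.32. DESeq2 size factors over all genes were 1 for each library, so this setting left the counts unscaled. Replicate 1 had 1.45 times the sense reads of replicate 2, so the 1.21 is the ratio of raw counts. The both-strand column gives no ratio for Mir378a. There it held 0% of the reads and 0% of the family, at rank 580 in replicate 2 and 609 in replicate 1, after every gene with reads. Its share was 18.4% without replicate 1 and 5.50% without replicate 2, its share of the family 99.947% and 99.935%, and its kept and antisense reads 0% in either case. Of the sense-strand denominators, all reads of the library gave a mean share of 5.35%, reads mapped to 1 place 11.1% and reads outside chromosome 12 13.4%.

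Genes at least 2-fold higher in replicate 2 numbered 105, or 60 with at least 100 reads and 202 with at least 1 read. Across the scalings they numbered 85 to 143, and those lower 122 to 155. Genes losing over 50% of their reads in the both-strand column numbered 23, 26 in either library alone, 17 with at least 100 reads in each and 29 with 10 in the pair together. Of 40 named genes outside the family, 24 were past 2-fold under TMM. Under other scalings 0 of these turned sign and 3 fell under it, while 10 of the rest passed it. No paired analysis was possible because there is 1 group. Counts of 15 to 185 reads limit Mir378b, Mir378c and Mir378d.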
